A study of Mus musculus with 24 samples.

Results

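The transcripts described here form module M[9] of a co-expression clustering of mouse myocardium after sham surgery. In such a clustering, transcripts whose levels go up and down together across samples are put in 1 module. The module was made from the same 24 samples that are described below, so the rise of its members at 24 h was part of their choice and is given as a description. The module table holds 1209 transcripts changed over time, each with a module or marked as unassigned, and 132 of them are in M[9]. One of these is not reported here, which left 131 members, and all 131 were found by UCSC transcript identifier among the 63758 transcripts counted. Of these 63758, 27661 had at least 1 count. Of the 131 members, 125 passed the filter on low counts and entered the tests, while 6 did not (Klhdc2, Myo1f, Oas3, D930015M05Rik, AK037380 and Ereg). One member, uc008ydy.2, is named by its identifier because the table holds a date in place of its symbol.

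All 24 animals were male C57BL/6 mice (C57BL/6J in the study's methods) of 8 to 12 weeks that had a left thoracotomy under pentobarbital and buprenorphine. A suture was passed round the left anterior descending coronary artery and removed without having been tied, and no group went without surgery. Left ventricular myocardium was taken at 0 min, at 45 min or at 24 h, from 8 mice each, and the chest of the 24 h mice had been closed after 45 min. Each mouse gave 1 polyA RNA library. The labels give neither surgeon nor library pool, and neither was used.

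The deposited values are raw counts per transcript, of which each sample held 9887957 to 14091629. Levels are given as CPM, read counts scaled to a common library size by TMM, and a CPM is not divided by transcript length, so levels are compared between samples and not between genes. Samples also differed in the number of transcripts with at least 1 count, which ranged from 12972 to 18865. The medians were 16232 (0 min), 17321 (45 min) and 18038 (24 h). In 5 libraries it was under 15000 (0 min replicates 5 and 7, and 45 min replicates 6, 7 and 8). Each change is therefore given from 2 fits, 1 with time alone and 1 in which the number of transcripts detected entered as a second term, called the covariate. The word "rose" is kept for members with an adjusted p under 0.05 in edgeR's quasi-likelihood test, over all 8940 transcripts tested, and a change is a log2 fold change ± its standard error (SE) with 8 mice at each time point.

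The tissue showed cardiomyocyte transcripts in every library. The summed level of 10 cardiomyocyte marker transcripts, among them cardiac actin Actc1 and alpha-actinin Actn2, was 16750 to 24010 CPM at 0 min, 18040 to 29960 at 45 min and 7051 to 12040 at 24 h. Of the 9 tested, 4 were lower at 24 h in the fit with time alone and 5 with the covariate, and none was at a median of 0. Actc1 held most of the sum, with a median of 14630 CPM at 0 min and 5941 at 24 h. Actn2 went from 2513 to 2181 CPM in median and was not called in either fit. Only transcripts of the module table carry a symbol, so every marker named here had been selected for a change over time. Nothing is therefore read from the counts of markers called. The changes of the 9 tested markers with the covariate ran from -1.24 for Actc1 to 0.23 for Tpm1, and why they differed was not tested. In whole tissue, fewer cells of a type and less RNA of a gene per cell cannot be told apart.

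As background, several groups of genes in the module belong to the making of secreted proteins. Secreted and membrane proteins enter the endoplasmic reticulum (ER) through a channel, lose their signal peptide, are folded by chaperones and protein disulfide isomerases and receive sugar chains that the Golgi later trims. Other members act in the nucleolus, where ribosomes are assembled, or are receptors and enzymes of macrophages, the phagocytes that live in the heart and also enter it after injury. A smaller group makes hyaluronan, a long sugar polymer that swells the matrix of injured tissue, and its sulfated relatives. Members were sorted into 12 lists by the known role of the gene.

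All 125 tested members had a higher estimate at 24 h than at 0 min in both fits, and 0 fell. In the fit with time alone, 63 of 125 rose, where 4.43% of all 8940 transcripts were called higher. With the covariate, 45 of 125 rose, where 6.45% of all transcripts were called higher. Of all transcripts, 3.23% were called lower with time alone and 5.27% with the covariate. The module was built from these samples, so nothing is read from either share. The median log2 fold change of the members was 0.61 with time alone and 0.39 with the covariate, beside 0.0033 and -0.025 over all transcripts tested. All 45 were also among the 63, so 18 members rose only without the covariate, 0 rose only with it and 62 rose in neither fit. The covariate itself differed between time points, also after each library was thinned to the smallest total (medians 15994 at 0 min and 17397 at 24 h). It can thus take up part of a change with time, and library quality and biology cannot be told apart in the 18. Without the 24 h replicate 2, the first count was 41. Without the 5 libraries under 15000 transcripts, an alternative chosen after seeing the data, 128 members passed the filter, of which 76 rose in the first fit and 58 in the second.

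The rise was modest for most members. With the covariate, 15 of 125 had a log2 fold change over 1, while 79 were under 0.5, and the range ran from 0.0011 for Esrra to 2.25 for Ms4a4a. Only in 13 tested members did every 24 h sample lie above every 0 min sample, which held for 0.996% of all transcripts tested (these are Serp1, Ugdh, Plcxd2, Gda, Ms4a6c, C3ar1, Ptafr, Btk, Ptprf, Rhou, Msn, Tmem38b and Slc39a6). In the other 112 the 2 groups of samples overlapped. Of the tested members, 5 averaged under 10 counts at 0 min (AK153656, Has2, Ms4a4a, Plcxd2 and Zfp964). A member that is low at 0 min can pass the filter through its later samples, and 3 of these 5 rose.

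**Figure D1:**
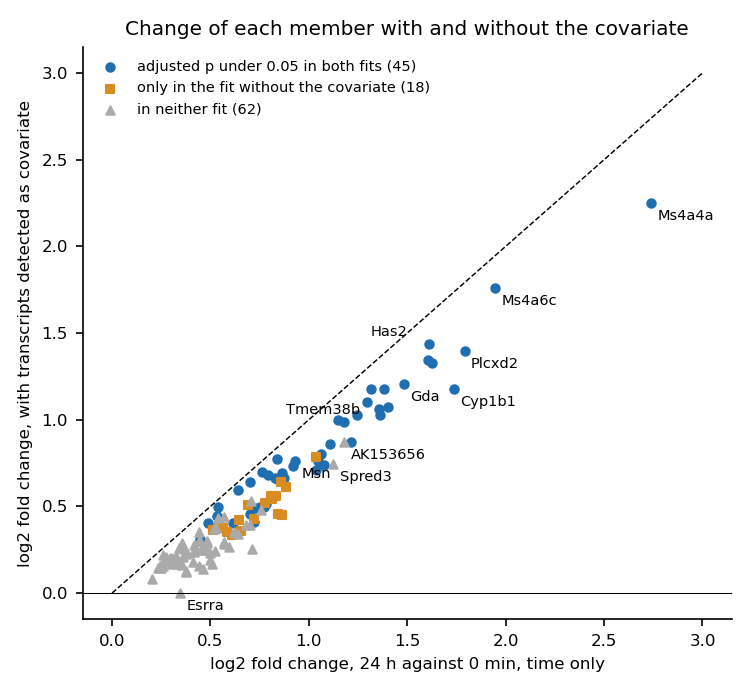
Each point is 1 of 125 members, with its log2 fold change at 24 h against 0 min in the fit with time alone (x axis) and in the covariate fit (y axis). All points lie below the dashed line of equal change, from Esrra at 0.0011 on the y axis to Ms4a4a at 2.25.

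The mean level of the members went with the number of transcripts detected, most closely at 45 min. A module score was taken as the mean over the 125 tested members of their standardized log2 CPM. It ranged from -1.30 to 0.18 at 0 min (median -0.29), from -1.74 to 0.058 at 45 min (median -0.049) and from -0.092 to 1.33 at 24 h (median 1.04). At 45 min, 5 samples lay between -0.091 and 0.058, while replicates 6, 7 and 8 were at -1.74, -0.89 and -1.60 and had 13743, 14353 and 12972 transcripts detected. The lowest sample at 24 h was replicate 4 at -0.092, with 15753 transcripts detected, and the other 7 were at 0.68 or above, over every sample of the earlier time points. Pearson's r of the score with the number of transcripts detected was 0.44 over the 0 min hearts, 0.96 over the 45 min hearts and 0.71 over the 24 h hearts (n = 8 each), and Spearman's rank correlation was 0.26, 0.64 and 0.49. Both measures come from the same libraries, so these are descriptions.

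**Figure D2:**
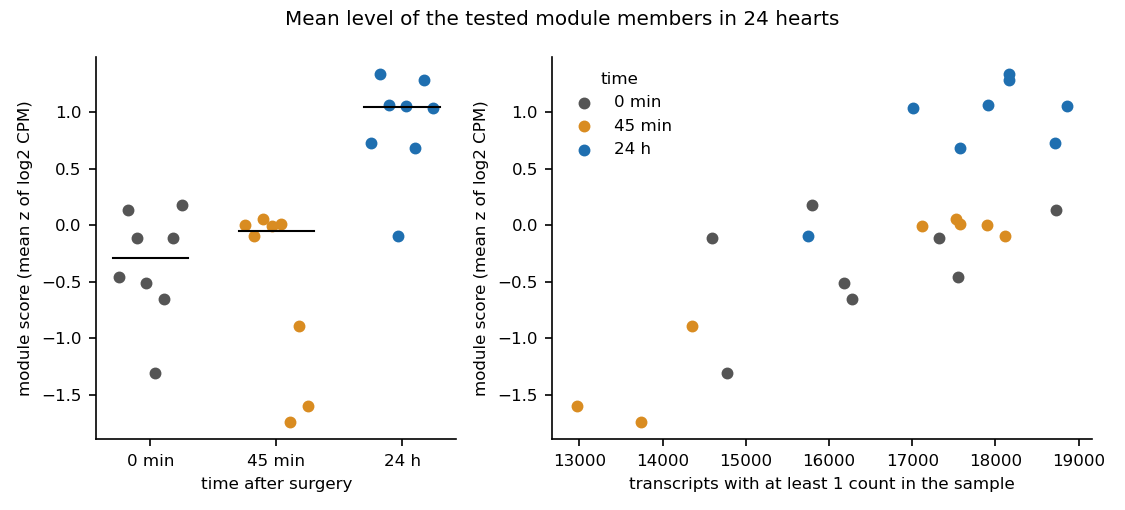
Module score of each heart by time point, with the median as a line (left), and against the number of transcripts with at least 1 count in the sample (right). At 24 h 7 of 8 samples lie at 0.68 or above, and the 3 lowest samples at 45 min are those with the fewest transcripts detected.

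In the covariate fit the slope on the number of transcripts detected was positive for all 125 members, with a median of 0.14 log2 units per 1000 transcripts. Over all transcripts tested the median slope was 0.031, and 4943 of 8940 were positive. In the other modules that were higher at 24 h the median slope was 0.11 (M[8]), 0.055 (M[7]), -0.069 (M[5]) and -0.17 (M[6]). With the covariate, the number that rose at 24 h against 0 min went from 25 to 18 of the 59 tested transcripts of M[8] and from 99 to 92 of 103 for M[7], while M[5] went from 82 to 86 of 101 and M[6] from 47 to 56 of 56. No test was made between modules, which were all clustered on these samples.

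At 45 min the members were near their level at 0 min. The median log2 fold change was -0.077 with time alone and -0.069 with the covariate, and 41 and 43 of 125 were positive. This sign turned without the 5 libraries under 15000 transcripts. The median was then 0.090 with time alone and 0.038 with the covariate, and 92 and 78 of 128 were positive. With time alone 0 members were called by edgeR (0.481% of all transcripts were called higher and 0.235% lower), 3 were higher and 4 lower at an unadjusted p under 0.05, limma-voom called 0, and DESeq2 called 1, Ms4a6c. With the covariate edgeR called Ms4a6c higher, where 0.66% of all transcripts were called higher and 0.447% lower. Limma-voom with the covariate called 1 member, and DESeq2 called 1 higher and 1, Esrra, lower. The edgeR call of Ms4a6c was lost without the 0 min replicate 1 or 4 or the 45 min replicate 7. It was also lost without the 5 libraries under 15000 transcripts, and with the share of the 20 most abundant transcripts as the covariate. With the covariate, edgeR called Esrra lower without the 0 min replicate 2 or 3, the 45 min replicate 4 or 5 or the 24 h replicate 4 or 8. Against 45 min, 87 members rose at 24 h with time alone (4.54% of all transcripts were called higher and 4.53% lower) and 57 with the covariate (5.74% higher and 4.94% lower). Of the 87, 58 had also risen against 0 min and 29 had not. These comparisons share their samples. Without the 5 libraries under 15000 transcripts, of which 3 are 45 min samples, the count of 87 became 46 and that of 57 became 53.

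The role lists differed in size of change. The median log2 fold change with the covariate was largest in the list of macrophage and innate immunity genes, at 0.76, and smallest in that of translation and RNA handling, at 0.21. Between them lay secreted and surface signals (0.65), lipid, nucleotide and redox enzymes (0.64), hyaluronan and chondroitin or dermatan sulfate synthesis (0.60), small GTPases and cytoskeleton (0.41), transporters and channels (0.39), genes with another or no known role (0.39), ER and Golgi (0.32), the nucleolus (0.30), transcription and chromatin (0.27) and lysosome and proteasome (0.25). No test was made between lists. The counts of each list given below stand beside 4.43% of all transcripts called higher at 24 h with time alone and 6.45% with the covariate. Members were chosen from these samples and most lists are small, so nothing is read from a list's count.

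**Figure D3:**
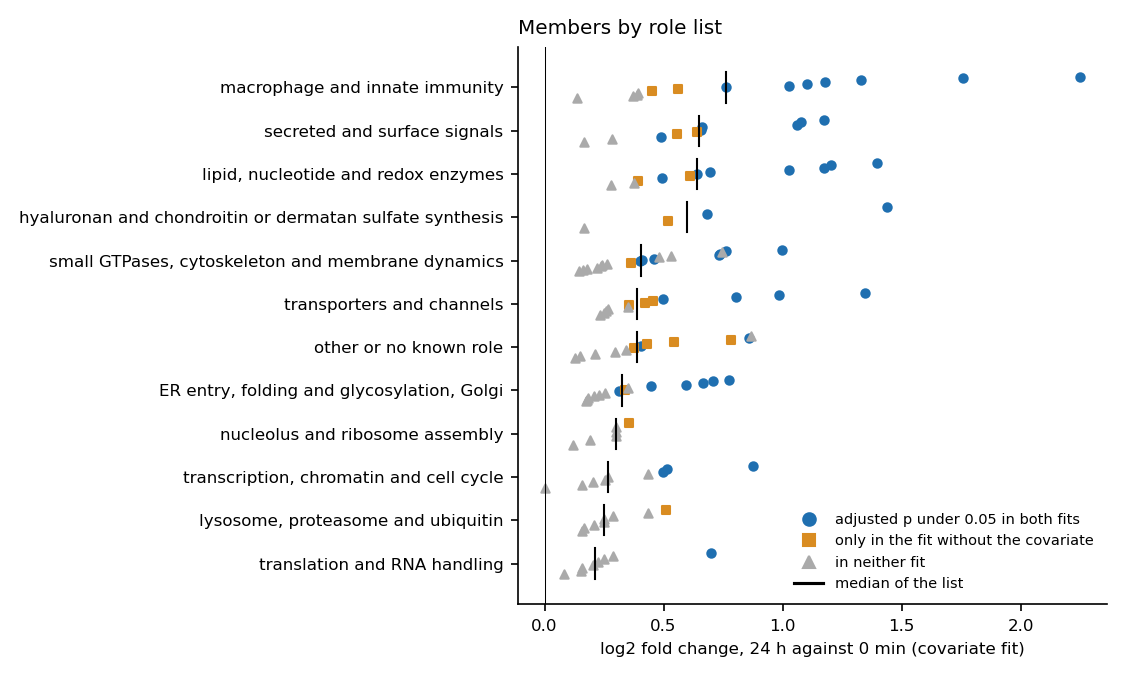
Log2 fold change at 24 h against 0 min of each tested member in the covariate fit, by role list, with the list's median as a line. Symbols show in which fits a member passed the threshold, and the macrophage list holds the 2 largest values, 2.25 for Ms4a4a and 1.76 for Ms4a6c. Ms4a4a had 1 to 27 counts at 0 min.

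The largest changes among the 15 macrophage and innate immunity members were in 2 genes of the Ms4a family, which encode membrane-spanning proteins of myeloid cells. Of the 13 tested, 9 rose with time alone and 7 with the covariate. Ms4a4a ranged over 0.0915 to 2.24 CPM (median 0.675) at 0 min, 0 to 2.35 (median 1.75) at 45 min and 2.07 to 7.95 (median 5.11) at 24 h. These values rest on few counts, 1 to 27 at 0 min and 24 to 136 at 24 h, so the size of its change is uncertain. In 7 of 8 hearts at 24 h it was above every 0 min heart, and its change was 2.74 ± 0.47 with time alone and 2.25 ± 0.40 with the covariate. Ms4a6c ranged over 1.65 to 4.77 CPM (median 3.02) at 0 min, 2.505 to 7.04 (median 6.504) at 45 min and 7.04 to 16.1 (median 11.05) at 24 h, and all 8 hearts at 24 h were above all at 0 min. It was the member called at 45 min with the covariate, and its change at 24 h was 1.95 ± 0.24 and 1.76 ± 0.23. These 2 genes have close relatives, among which reads could have been split.

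Receptors of inflammatory signals were in the same list. C3ar1, the receptor of the complement fragment C3a, ranged over 2.64 to 4.402 CPM (median 3.79) at 0 min, 1.37 to 8.18 (median 3.59) at 45 min and 6.31 to 19.7 (median 10.3) at 24 h. Ptafr, the receptor of platelet-activating factor, ranged over 0.878 to 3.76 CPM (median 2.504) at 0 min and 3.97 to 9.61 (median 5.199) at 24 h. Neither gene overlapped between 0 min and 24 h, and their changes with the covariate were 1.33 ± 0.26 and 1.18 ± 0.25. Btk, a tyrosine kinase of B cells and myeloid cells, ranged over 0.781 to 1.91 CPM (median 1.66) at 0 min, 0.559 to 2.73 (median 1.79) at 45 min and 2.02 to 5.95 (median 3.31) at 24 h, also without overlap of 0 min and 24 h, and its change was 1.03 ± 0.26 with the covariate. Fgl2, a fibrinogen-like protein with coagulant activity, rose by 1.10 ± 0.25 and Igsf6, an immunoglobulin superfamily receptor, by 0.76 ± 0.21.

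Other innate genes were past the threshold only without the covariate or in neither fit. Cybb, the catalytic subunit of the phagocyte NADPH oxidase, and Tnfrsf11a, the receptor RANK, were at 0.83 and 0.86 with time alone and at 0.56 and 0.45 with the covariate, where they did not pass. Tlr4, the endotoxin receptor, Irak4, a kinase downstream of it, and Maf, a transcription factor of macrophages, passed in neither fit (0.39, 0.37 and 0.39 with the covariate). The smallest value in both fits was that of Trim30a, an interferon-induced gene with close relatives, which ranged over 5.97 to 18.7 CPM (median 12.3) at 0 min, 3.302 to 15.8 (median 12.05) at 45 min and 12.3 to 25.8 (median 16.2) at 24 h with a change of 0.14 ± 0.25 with the covariate. Also in this list, 2 members, the myosin Myo1f and the antiviral enzyme Oas3, did not pass the filter, with 0 to 6 and 2 to 9 counts at 0 min and 3 to 18 and 6 to 77 at 24 h.

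Macrophage and monocyte markers outside the module moved at the same time. Of 15 such transcripts, 13 were tested, 13 rose with time alone and 12 with the covariate, and their sum was 42.01 to 76.5 CPM at 0 min, 44.4 to 82.2 at 45 min and 61.2 to 275 at 24 h. Marco and a transcript of Ccr2 were at a median of 0 at 0 min. All 6 of 6 tested neutrophil markers rose in both fits, from a sum of 2.74 to 16.04 CPM at 0 min to 98.9 to 551 at 24 h. Lcn2 made up most of the 24 h sum, with a median of 330 CPM, from 1.66 at 0 min. The 24 h median was 13.55 CPM for Mmp9, 3.06 for Cxcr2 and for Mmp8, 2.07 for Ifitm6 and 1.62 for Cd177. Of 8 endothelial markers 4 rose with time alone and 5 with the covariate (Selp, Sele, Icam1, Clec14a and Thbd). The others, Dll4, S1pr1 and Fli1, changed by -0.28, 0.03 and 0.03 with the covariate and passed in neither fit. At 45 min the changes of Sele and Icam1 were already 2.23 and 1.255 with time alone. Among mesothelial markers, 5 of 5 tested rose in both fits. Of 6 fibroblast markers, 2 rose and 2 fell with time alone, and 1 rose and 1 fell with the covariate. Only symbols in the module table could be looked at, 14 of 18 listed for macrophages and monocytes and 7 of 12 for neutrophils. For endothelium these were 8 of 12, for mesothelium 6 of 9 and for fibroblasts 6 of 10. All had been selected for a change over time in the same samples, so nothing is read from these counts. Of all transcripts, 4.43% were called higher with time alone and 6.45% with the covariate, and 3.23% and 5.27% lower. The part of these cell types in the members' values was not tested.

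The promoters of 2 macrophage genes are shown because both hold the letters TGANTCA, the core to which AP-1 factors bind. These letters were in 5 of the 13 promoters of the list, in 5.88% of all member promoters and in 7.93% of all promoters. The sequences are the 250 bases before the start of the RefSeq transcript in GRCm38.p6, printed 5′ to 3′ with that motif in capitals. The C3ar1 promoter is chr6:122856158-122856407, minus strand, with the motif beginning 22 bases before the start, and the Fgl2 promoter is chr5:21372423-21372672, plus strand, with the motif 16 bases before the start.
C3ar1 promoter: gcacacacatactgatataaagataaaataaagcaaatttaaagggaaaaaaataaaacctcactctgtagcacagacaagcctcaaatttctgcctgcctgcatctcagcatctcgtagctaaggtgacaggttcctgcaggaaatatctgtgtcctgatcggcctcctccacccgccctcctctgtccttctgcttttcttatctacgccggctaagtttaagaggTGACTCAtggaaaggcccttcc
Fgl2 promoter: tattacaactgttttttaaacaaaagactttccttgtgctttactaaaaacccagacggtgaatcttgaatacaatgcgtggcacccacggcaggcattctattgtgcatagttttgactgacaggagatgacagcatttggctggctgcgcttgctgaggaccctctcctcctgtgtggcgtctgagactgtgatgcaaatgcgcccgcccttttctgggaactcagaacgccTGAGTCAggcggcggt

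The ER and Golgi list held 14 members, all tested, of which 7 rose with time alone and 6 with the covariate. Without the 24 h replicate 2 the first count was 4, as it was without the 24 h replicate 3. Pdia4, a protein disulfide isomerase, had the largest change with the covariate. It ranged over 34.8 to 58.7 CPM (median 46.5) at 0 min, 28.9 to 75.7 (median 42.5) at 45 min and 47.9 to 111 (median 83.9) at 24 h, with 7 of 8 hearts at 24 h above every heart at 0 min, and its change was 0.84 ± 0.18 with time alone and 0.78 ± 0.18 with the covariate. Pdia6, a second disulfide isomerase, ranged over 17.2 to 28.8 CPM (median 25.4) at 0 min, 15.4 to 30.8 (median 21.7) at 45 min and 25.4 to 46.2 (median 36.8) at 24 h and rose by 0.45 ± 0.15 with the covariate, with 6 of 8 hearts at 24 h above every 0 min heart. Pdia3, which folds glycoproteins together with calnexin, ranged over 122 to 236 CPM (median 189) at 0 min, 104 to 244 (median 172) at 45 min and 183 to 319 (median 244) at 24 h, and its change of 0.35 ± 0.16 did not pass the threshold in either fit. The difference in change between the 3 isomerases was not tested.

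Further members act at the entry to the ER. Serp1, a small protein of the translocation channel, ranged over 22.2 to 36.2 CPM (median 28.97) at 0 min, 14.9 to 30.1 (median 27.02) at 45 min and 37.4 to 57.5 (median 45.2) at 24 h. It was the 1 member of the list with no overlap between 0 min and 24 h, and its change was 0.59 ± 0.14 with the covariate. Spcs3, a subunit of signal peptidase, rose by 0.67 ± 0.17. Stt3a, a catalytic subunit of the oligosaccharyltransferase, rose with time alone (0.61 ± 0.19) and did not pass with the covariate (0.34 ± 0.13). Tram1, another protein of the channel, had the smallest change of the list with the covariate at 0.18 ± 0.15 and ranged over 28.6 to 56.98 CPM (median 44.4) at 0 min, 25.7 to 49.1 (median 41.7) at 45 min and 34.8 to 66.8 (median 58.5) at 24 h, with overlap between the groups in all but 4 of the 24 h hearts. The ribosome-binding protein Rrbp1, at 0.23, also passed in neither fit.

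Golgi enzymes of sugar chains were among those that rose. Man2a1, the mannosidase that trims N-glycans, ranged over 14.8 to 38.8 CPM (median 24.6) at 0 min, 13.99 to 36.02 (median 29.8) at 45 min and 28 to 68.2 (median 56.6) at 24 h, with 6 of 8 hearts at 24 h above every 0 min heart. Its change was 1.04 ± 0.22 with time alone and 0.71 ± 0.16 with the covariate. B4galt1, a galactosyltransferase, rose by 0.31 ± 0.10 with the covariate. Tmem167, a small Golgi membrane protein, ranged over 9.88 to 19.5 CPM (median 15.8) at 0 min, 8.54 to 15.8 (median 12.6) at 45 min and 14.3 to 23.96 (median 17.8) at 24 h and passed in neither fit. It was 1 of the 3 members least correlated with the mean of the other members (r = 0.72).

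The wider pathway was looked at through a list of 50 genes of ER entry, folding and the unfolded protein response, 20 of which carry a symbol in the module table, with 21 transcripts. Of the 21, 10 are members of M[9]. Of the other 11, 4 rose with time alone and 6 with the covariate, and 0 fell. The 6 were Pdia5, Sdf2l1, Herpud2, the Sec61a1 transcript of module M[6], Srp68 and Lrrc59. All had been selected for a change over time, and the other 30 genes of the list, which include the chaperone Hspa5, carry no symbol and were not analysed here.

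From this list 2 promoters are shown, that of Pdia6 for the ER stress response element and that of Pdia4 for its CCAAT boxes. Pdia6 was the only 1 of 102 member promoters with the ER stress response element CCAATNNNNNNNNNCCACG, and Pdia4 holds CCAAT on either strand at 3 places. CCAAT alone is common, in 37.9% of all promoters and 32.4% of member promoters. The Pdia4 promoter holds neither that element nor TGACGTG, the core of the unfolded protein response element. As above, these are the 250 bases before the RefSeq start in GRCm38.p6, with the element of Pdia6 (98 bases before the start) and the CCAAT boxes of Pdia4 (213, 94 and 75 bases before it, ATTGG on the other strand) in capitals. The Pdia6 promoter is chr12:17266339-17266588, plus strand, and the Pdia4 promoter is chr6:47813513-47813762, minus strand.
Pdia6 promoter: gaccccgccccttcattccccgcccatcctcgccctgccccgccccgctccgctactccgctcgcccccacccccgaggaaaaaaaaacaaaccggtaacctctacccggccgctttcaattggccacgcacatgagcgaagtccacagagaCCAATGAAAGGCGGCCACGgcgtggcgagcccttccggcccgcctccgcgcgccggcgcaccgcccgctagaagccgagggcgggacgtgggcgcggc
Pdia4 promoter: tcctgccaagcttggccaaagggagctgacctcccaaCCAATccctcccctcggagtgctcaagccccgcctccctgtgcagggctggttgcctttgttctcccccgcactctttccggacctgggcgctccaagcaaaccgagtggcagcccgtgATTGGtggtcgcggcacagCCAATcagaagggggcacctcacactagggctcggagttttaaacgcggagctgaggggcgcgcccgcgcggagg

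In the nucleolus or in ribosome assembly 6 members act, with changes of 0.12 to 0.35 with the covariate. With time alone 1 of 6, Ddx21, rose, and with the covariate edgeR called 0, while 2 were at an unadjusted p under 0.05, limma-voom called 0 and DESeq2 called 1. Ddx21, an RNA helicase of ribosomal RNA synthesis, ranged over 31.8 to 66.8 CPM (median 52.4) at 0 min, 25.4 to 64.3 (median 57) at 45 min and 50.6 to 100.3 (median 78.7) at 24 h, with 7 of 8 hearts at 24 h above every 0 min heart. Its change was 0.58 ± 0.17 with time alone and 0.35 ± 0.13 with the covariate. Nop58, a core protein of the small nucleolar particles that methylate ribosomal RNA, ranged over 9.68 to 25.7 CPM (median 18.2) at 0 min, 12.3 to 19.1 (median 17.4) at 45 min and 17.5 to 33.5 (median 24.5) at 24 h, and its change of 0.30 ± 0.16 did not pass.

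Ncl encodes nucleolin, the abundant protein of the nucleolus, and ranged over 128 to 287 CPM (median 215) at 0 min, 109 to 257 (median 208) at 45 min and 158 to 320.2 (median 291) at 24 h, with a change of 0.12 ± 0.14 that passed in neither fit. The 3 others were Wdr3 (0.30), Heatr1 (0.19) and Ftsj3 (0.30). When single libraries were left out, the count with the covariate was 2 without the 0 min replicate 8, 1 without the 0 min replicate 7, the 45 min replicate 6 or the 24 h replicate 1 or 4, and otherwise 0. With time alone it ran from 0 (without 0 min replicates 5, 6 or 7 or 24 h replicates 2, 5, 6 or 7) to 3 (without the 0 min replicate 8), and was 2 without the 24 h replicate 4 or any 45 min replicate but the second. Of 8 further transcripts of nucleolar genes outside the module, 5 rose with time alone and 4 with the covariate (Npm1, Wdr46, Rrp12 and Pa2g4). These 8 had been selected for a change over time in the same samples, so nothing is read from either count.

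Translation and RNA handling genes showed 1 rise among 8 members in either fit. Eif1a, an initiation factor that helps to find the start codon, ranged over 6.22 to 15.2 CPM (median 9.45) at 0 min, 6.15 to 12.6 (median 7.97) at 45 min and 12.8 to 21.5 (median 16.3) at 24 h. In 5 of 8 hearts at 24 h it was above every 0 min heart, and its change was 0.76 ± 0.19 with time alone and 0.70 ± 0.20 with the covariate. Ccnl2, a cyclin of splicing, ranged over 26.4 to 48.4 CPM (median 33.3) at 0 min, 18.4 to 38.6 (median 35.05) at 45 min and 36.6 to 60.9 (median 45.2) at 24 h, and Dhx40, a helicase with the smallest change of the list in both fits, over 15.4 to 37.1 CPM (median 24.8) at 0 min, 16.6 to 29.4 (median 22.3) at 45 min and 20.7 to 35.6 (median 29.1) at 24 h. Their changes of 0.29 ± 0.15 and 0.08 ± 0.14 did not pass, and the groups of Dhx40 overlapped in full. With time alone the count was 3 without the 24 h replicate 4 and 2 without the 0 min replicate 8 or the 45 min replicate 6.

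All 4 enzymes of hyaluronan and chondroitin or dermatan sulfate synthesis had a higher estimate at 24 h, with 3 of 4 past the threshold with time alone and 2 with the covariate. Has2, a hyaluronan synthase, ranged over 0.366 to 1.76 CPM (median 0.841) at 0 min, 0.228 to 0.937 (median 0.561) at 45 min and 1.09 to 4.91 (median 2.54) at 24 h. It had few counts, 4 to 18 at 0 min and 15 to 84 at 24 h. Its level at 45 min was below that at 0 min in median, 6 of 8 hearts at 24 h were above every 0 min heart, and its change was 1.61 ± 0.33 with time alone and 1.44 ± 0.36 with the covariate. Ugdh makes UDP-glucuronic acid, a sugar that hyaluronan and chondroitin are built from, and ranged over 11.3 to 17.1 CPM (median 13.6) at 0 min, 9.62 to 16.1 (median 13.1) at 45 min and 17.5 to 32.1 (median 23.8) at 24 h. Its 0 min and 24 h hearts did not overlap, and its change was 0.68 ± 0.14 with the covariate.

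The other enzymes of this group act on chondroitin and dermatan sulfate. Dse, the epimerase of dermatan sulfate, rose with time alone (0.78 ± 0.22) and did not pass with the covariate (0.52 ± 0.19). Chsy1, a chondroitin synthase, ranged over 11.3 to 18.5 CPM (median 16.6) at 0 min, 8.504 to 19.3 (median 13.4) at 45 min and 14.4 to 23.3 (median 21.5) at 24 h with a change of 0.17 ± 0.14 that did not pass. Outside the module, 6 of 8 tested transcripts of a list of hyaluronan and glycosaminoglycan genes rose with time alone, 6 rose with the covariate and 0 fell past the threshold. Those that rose with the covariate include the hyaluronan synthase Has1 and Tnfaip6, whose protein crosslinks hyaluronan. All 8 had been selected for a change over time in the same samples, so nothing is read from these counts.

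Of 11 secreted proteins and surface signals, 10 were tested, 8 rose with time alone and 6 with the covariate. Alcam, an adhesion molecule of leukocytes and endothelium, ranged over 0.391 to 2.34 CPM (median 1.73) at 0 min, 0.911 to 2.45 (median 1.74) at 45 min and 1.95 to 6.88 (median 3.84) at 24 h, with 6 of 8 hearts at 24 h above every 0 min heart and a change of 1.18 ± 0.30 with the covariate. C7, a component of the complement attack complex, ranged over 3.47 to 14.2 CPM (median 10.2) at 0 min, 4.896 to 13.9 (median 9.98) at 45 min and 10.9 to 34.8 (median 23.01) at 24 h, and its change was 1.08 ± 0.25. Ptprf, a receptor tyrosine phosphatase, did not overlap between 0 min and 24 h, at 7.73 to 13.2 CPM (median 11.7) at 0 min and 15.4 to 43.2 (median 28.2) at 24 h, and rose by 1.06 ± 0.17. Sema3g, a semaphorin, and Ednra, the endothelin A receptor, rose by 0.66 ± 0.14 and 0.66 ± 0.18.

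Ece1 makes endothelin from its precursor and had the smallest change of these 10 in both fits, 0.17 ± 0.10 with the covariate, over 65.1 to 85.9 CPM (median 77.4) at 0 min, 48.95 to 89.9 (median 71.98) at 45 min and 72.2 to 111 (median 96.1) at 24 h. Bmper and Frzb, secreted regulators of BMP and Wnt signals, rose only without the covariate (0.86 ± 0.25 and 0.81 ± 0.24). Pros1, protein S of the anticoagulant pathway, was the member most correlated with the mean of the others (r = 0.97 over 24 samples) and ranged over 17.7 to 30.3 CPM (median 21.6) at 0 min, 12.5 to 30.4 (median 23.6) at 45 min and 25.7 to 46.3 (median 41.4) at 24 h, with a rise of 0.49 ± 0.15. Ereg, a ligand of the EGF receptor, did not pass the filter. It had 0 to 2 counts at 0 min, 0 to 4 at 45 min and 4 to 24 at 24 h, so that every heart at 24 h lay above every heart at 0 min on few counts.

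The largest list held 18 small GTPases, their partners and cytoskeletal proteins, of which 8 rose with time alone and 7 with the covariate. Rhou, a small GTPase, ranged over 2.64 to 6.603 CPM (median 5.26) at 0 min, 3.53 to 9.03 (median 6.72) at 45 min and 8.45 to 13.0 (median 11.2) at 24 h. Moesin, Msn, which links actin to the membrane, ranged over 197 to 287 CPM (median 242) at 0 min, 159 to 290.2 (median 252) at 45 min and 322 to 705 (median 433) at 24 h. Neither overlapped between 0 min and 24 h, and their changes with the covariate were 1.00 ± 0.18 and 0.76 ± 0.14. The scaffolds Iqgap1 and Iqgap2 both rose, Iqgap1 by 0.46 ± 0.13 and Iqgap2 by 0.74 ± 0.21 with the covariate. Iqgap1 ranged over 46.96 to 99.8 CPM (median 70.1) at 0 min and 69.3 to 150.4 (median 118) at 24 h, and Iqgap2 over 2.52 to 4.32 CPM (median 2.77) at 0 min and 3.62 to 10.7 (median 6.703) at 24 h, with 5 and 6 of 8 hearts at 24 h above every 0 min heart.

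The Ras-like GTPases of the Rap family were at the low end of this list. Rap1b ranged over 45.2 to 96.5 CPM (median 67.7) at 0 min, 45.4 to 73.4 (median 55.7) at 45 min and 60.8 to 102 (median 84.6) at 24 h and Rap2a over 14.2 to 23.3 CPM (median 18.96) at 0 min, 13.8 to 19.6 (median 16.9) at 45 min and 18.7 to 29.1 (median 21.7) at 24 h, and their changes of 0.26 ± 0.15 and 0.14 ± 0.11 passed in neither fit. Both rose against 45 min with time alone, as did Arf6, a GTPase of endocytosis. Spred3, an inhibitor of Ras signals, had an estimate of 1.12 ± 0.36 with time alone that did not pass, and its 24 h samples ranged from 1.04 to 5.82 CPM. Rassf4, Capn2 and Raph1 rose in both fits, by 0.73, 0.40 and 0.41 with the covariate, and Twf1 only without it.

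Among 12 transporters and channels, 7 rose with time alone and 4 with the covariate. Slc41a2, a magnesium transporter, ranged over 0.607 to 3.24 CPM (median 0.947) at 0 min, 0.797 to 2.28 (median 1.98) at 45 min and 2.67 to 6.59 (median 4.01) at 24 h, with 7 of 8 hearts at 24 h above every 0 min heart, and rose by 1.35 ± 0.28 with the covariate. Tmem38b, the channel TRIC-B, which balances potassium across the sarcoplasmic and endoplasmic reticulum while calcium is released, ranged over 20.3 to 36.6 CPM (median 28.4) at 0 min, 16.7 to 37.7 (median 28.7) at 45 min and 44.8 to 73.8 (median 63.99) at 24 h. Its 0 min and 24 h hearts did not overlap, its change was 1.18 ± 0.15 with time alone and 0.99 ± 0.13 with the covariate, and it was called in every fit that left out 1 library. Slc39a6, a zinc importer, and Slc6a6, the taurine transporter, rose by 0.80 ± 0.17 and 0.50 ± 0.15.

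The chloride intracellular channel proteins Clic4 and Clic5 differed in their calls. Clic5 ranged over 193 to 436 CPM (median 325) at 0 min, 167 to 482 (median 368) at 45 min and 339 to 655 (median 518) at 24 h and rose with time alone (0.65 ± 0.20) but not with the covariate (0.36 ± 0.13). Clic4 ranged over 374 to 559 CPM (median 497) at 0 min, 360.4 to 559.8 (median 530.0) at 45 min and 435 to 768 (median 657) at 24 h and passed in neither fit (0.26 ± 0.11 with the covariate), and the difference between both genes was not tested. Slc30a1, a zinc exporter, had the smallest change with the covariate, 0.23 ± 0.14, over 12.9 to 30.7 CPM (median 22.5) at 0 min, 14.3 to 36.1 (median 21.7) at 45 min and 22.1 to 41.7 (median 32.9) at 24 h. Slc25a24, a mitochondrial carrier of ATP and magnesium, was among the 3 members most correlated with the others (r = 0.95) and ranged over 6.46 to 13.5 CPM (median 8.46) at 0 min, 3.76 to 10.4 (median 8.199) at 45 min and 8.47 to 17.95 (median 13.7) at 24 h. The count with time alone was 4 in place of 7 without any 1 of 7 libraries (0 min replicates 4, 6 and 7, and 24 h replicates 2, 5, 7 and 8).

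Of 11 enzymes of lipid, nucleotide and redox metabolism, 9 rose with time alone and 7 with the covariate, and the latter count was 3 without the 0 min replicate 2. Gda, guanine deaminase, ranged over 11.9 to 23.5 CPM (median 15.03) at 0 min, 6.49 to 22.2 (median 14.1) at 45 min and 30.9 to 63.8 (median 42.6) at 24 h, without overlap of 0 min and 24 h, and rose by 1.20 ± 0.18 with the covariate. Plcxd2, a phospholipase-like protein, ranged over 0.183 to 0.748 CPM (median 0.391) at 0 min, 0 to 0.992 (median 0.506) at 45 min and 0.76 to 2.56 (median 1.43) at 24 h, on few counts, with a change of 1.40 ± 0.40. Soat1 and Cyp1b1, which esterify cholesterol and oxidize steroids and fatty acids, rose by 1.03 ± 0.23 and 1.18 ± 0.33. Ctps, which makes CTP, and Maoa, the monoamine oxidase, rose by 0.49 ± 0.14 and 0.64 ± 0.20. The sphingomyelin synthase Sgms2 and glutathione reductase Gsr rose only without the covariate. Pip4k2a, a lipid kinase, had the smallest change in both fits, 0.28 ± 0.14 with the covariate, over 11.4 to 20.3 CPM (median 15.3) at 0 min, 10.7 to 20.8 (median 14.9) at 45 min and 14.1 to 24.9 (median 21.99) at 24 h.

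Protein degradation genes had small changes. Of 8 tested members with roles in lysosome, proteasome or ubiquitin transfer, 1 rose with time alone. With the covariate edgeR called 0, while 3 were at an unadjusted p under 0.05, and limma-voom called 0. DESeq2, which was run without the filter on 9 members of the list, called 2. Rnf149, a ubiquitin ligase, ranged over 4.13 to 5.66 CPM (median 4.49) at 0 min, 3.13 to 7.58 (median 5.04) at 45 min and 5.18 to 11.2 (median 7.21) at 24 h, with 7 of 8 hearts at 24 h above every 0 min heart, and its change was 0.69 ± 0.18 with time alone and 0.51 ± 0.18 with the covariate. Kbtbd11, a Kelch protein and the member least correlated with the others (r = 0.72), ranged over 2.44 to 4.31 CPM (median 3.41) at 0 min, 0.797 to 5.07 (median 3.202) at 45 min and 4.301 to 6.08 (median 4.97) at 24 h with a change of 0.44 ± 0.20. Psmd1, a subunit of the proteasome cap, was at 125 to 195 CPM (median 166) at 0 min, 143 to 186 (median 166) at 45 min and 152 to 213 (median 200.2) at 24 h with 0.16 ± 0.09. Klhdc2, a substrate receptor of a ubiquitin ligase, did not pass the filter, with 0 to 7 counts at 0 min and 6 to 19 at 24 h. When single libraries were left out, the count with time alone was 0 without the 24 h replicate 2 or 3, 3 without the 24 h replicate 4 or the 45 min replicate 6 or 8, and 2 without the 0 min replicate 2 or 3 or the 45 min replicate 1, 3, 4, 5 or 7. With the covariate it was 2 without the 0 min replicate 7 or the 45 min replicate 6, and 1 without the 0 min replicate 5, the 45 min replicate 4, 7 or 8 or the 24 h replicate 1 or 8.

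Of 9 genes of transcription, chromatin and the cell cycle, 3 rose in both fits. Zfp697, a zinc finger protein, ranged over 6.95 to 19.2 CPM (median 13.04) at 0 min, 6.03 to 17.5 (median 11.8) at 45 min and 17.2 to 43.1 (median 32.8) at 24 h, with 7 of 8 hearts at 24 h above every 0 min heart, and its change was 1.21 ± 0.22 with time alone and 0.87 ± 0.15 with the covariate. Baz1a, a subunit of a chromatin remodeler, ranged over 7.63 to 9.72 CPM (median 9.02) at 0 min, 4.48 to 11.8 (median 9.69) at 45 min and 9.33 to 23.2 (median 14.8) at 24 h and rose by 0.52 ± 0.15, and the antiproliferative gene Btg1 rose by 0.50 ± 0.15. Esrra, a nuclear receptor that drives mitochondrial genes, ranged over 6.95 to 11.4 CPM (median 8.92) at 0 min, 2.85 to 9.57 (median 7.196) at 45 min and 5.88 to 14.04 (median 12.8) at 24 h, and its change was 0.35 ± 0.21 with time alone and 0.0011 ± 0.23 with the covariate, and its sign with the covariate turned with upper quartile scaling (-0.03). The count with the covariate was 1 without the 0 min replicate 1 or 2 or the 24 h replicate 2.

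Another or no known role was given to 14 members. Of the 12 tested, 6 rose with time alone and 2, Sowahc and uc008ydy.2, with the covariate. Sowahc ranged over 1.37 to 2.99 CPM (median 2.41) at 0 min, 1.01 to 4.17 (median 3.08) at 45 min and 2.85 to 6.47 (median 4.705) at 24 h, with 7 of 8 hearts at 24 h above every 0 min heart, and its change was 0.86 ± 0.20 with the covariate. The transcript AK153656 had the largest estimate in both fits, 0.87 ± 0.38 with the covariate, over 0.26 to 1.33 CPM (median 0.877) at 0 min, 0 to 1.49 (median 0.898) at 45 min and 1.07 to 2.77 (median 1.75) at 24 h, and did not pass in either fit. AK202301 had the smallest with the covariate, 0.13 ± 0.16, over 20.2 to 41.2 CPM (median 31.6) at 0 min, 12.6 to 32.2 (median 29.3) at 45 min and 22.9 to 46.7 (median 41.6) at 24 h. D930015M05Rik and AK037380 did not pass the filter, with 0 to 10 and 0 to 7 counts at 0 min and 2 to 9 and 6 to 17 at 24 h. With time alone the count was 1 without the 24 h replicate 2, 2 without the 24 h replicate 5 or 7, and 3 without the 0 min replicate 1, 3, 6 or 8 or the 24 h replicate 6 or 8. With the covariate it was 4 without the 0 min replicate 7 or the 45 min replicate 8, and 1 without the 0 min replicate 1 or 6, the 45 min replicate 2 or the 24 h replicate 2, 3, 5, 7 or 8.

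**Figure D4:**
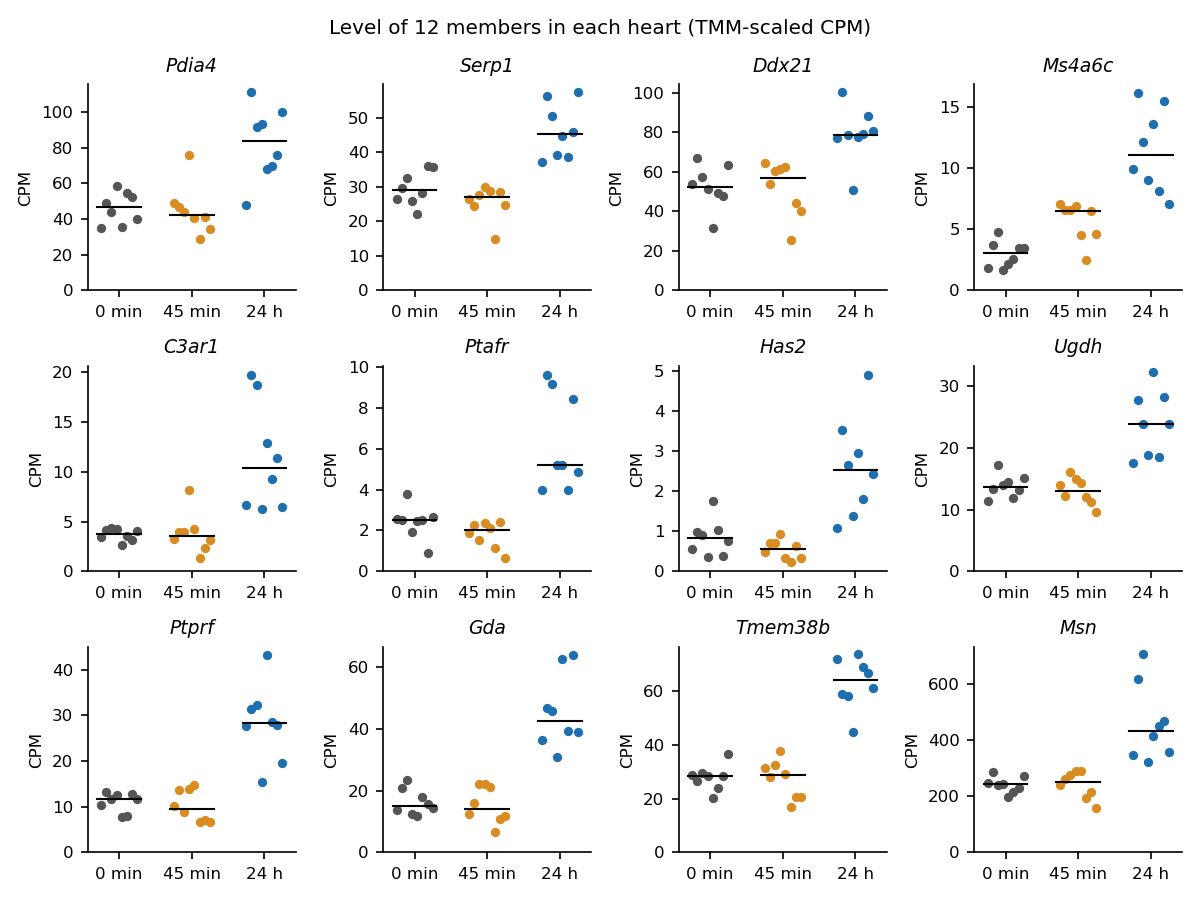
TMM-scaled CPM of 12 members in each heart, with 8 hearts at each of 0 min, 45 min and 24 h and the median as a line. In Ms4a6c, C3ar1, Ptafr, Serp1, Ugdh, Ptprf, Gda, Tmem38b and Msn every 24 h heart lies above every 0 min heart, while Pdia4, Ddx21 and Has2 overlap.

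Membership belongs to the transcript, and 3 members have a second transcript in the module table. The Maf transcript of the module, uc009nof.1, ranged over 7.14 to 14.2 CPM (median 11.9) at 0 min, 5.69 to 19.2 (median 11.9) at 45 min and 12.9 to 23.8 (median 17.9) at 24 h, while uc009noe.2, which has no module, ranged over 1.74 to 4.31 CPM (median 3.35) at 0 min and 2.895 to 5.38 (median 4.03) at 24 h. The first had a correlation of 0.91 with the mean of the other members over 24 samples, and the second of 0.38 with the module score. For Lamp2, a lysosomal membrane protein, uc009szv.2 in the module ranged over 2.54 to 4.77 CPM (median 3.87) at 0 min, 0.559 to 4.07 (median 2.49) at 45 min and 2.65 to 8.66 (median 4.78) at 24 h and uc009szw.2 outside it over 3.38 to 9.19 CPM (median 5.39) at 0 min and 4.05 to 12.5 (median 8.09) at 24 h, with correlations of 0.77 and 0.42. None of these 4 passed the threshold at 24 h against 0 min in either fit. Bmp2k, a kinase of clathrin adaptors, ranged over 4.696 to 7.15 CPM (median 5.82) at 0 min, 3.87 to 6.25 (median 5.84) at 45 min and 4.41 to 10.3 (median 8.205) at 24 h in the module, and its second transcript did not pass the filter. Transcripts of 1 gene share exons, and how the counting dealt with shared reads is not given in the sources used here.

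The correlation of a member with the mean of the others ran from 0.72 to 0.97, with a median of 0.85. Outside the module, the transcripts most correlated with the score were Serinc3 (r = 0.85) and Ppl (r = 0.85), both of M[8], and Star of M[7] (r = 0.84). Serinc3, a membrane protein of serine incorporation into lipids, ranged over 342 to 485 CPM (median 421) at 0 min and 441 to 982 (median 755) at 24 h, Ppl, periplakin, over 3.201 to 8.21 CPM (median 4.51) at 0 min and 3.98 to 19.5 (median 12.8) at 24 h, and Star, which carries cholesterol into mitochondria, over 2.45 to 5.07 CPM (median 4.29) at 0 min and 8.98 to 29.1 (median 12.7) at 24 h. Btk had a correlation of 0.72, among the lowest. The 24 samples share their depth and their number of transcripts detected, and the correlations are descriptions.

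Promoter sequence was not used to choose the members. A RefSeq promoter of GRCm38.p6, 250 bases before to 50 after the start, was listed for 102 of the 131 members by symbol, and the first of several starts was taken for 8 of them. The member promoters had a median GC content of 63.8% and a median of 23 CpG dinucleotides, beside 56.3% and 13 over 17491 protein-coding genes and 52.7% and 7 over all 27025 genes. The 13 promoters of the macrophage list stood at a median of 49.3% and 5 CpG, while every other list had a median of 16 CpG or more. The GC box GGGCGG, on either strand, was in 71.6% of member promoters, in 46.3% of those of protein-coding genes and in 35.9% of all. Neither comparison set was limited to genes tested in these hearts, so nothing particular to the module is read from these differences.

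**Figure D5:**
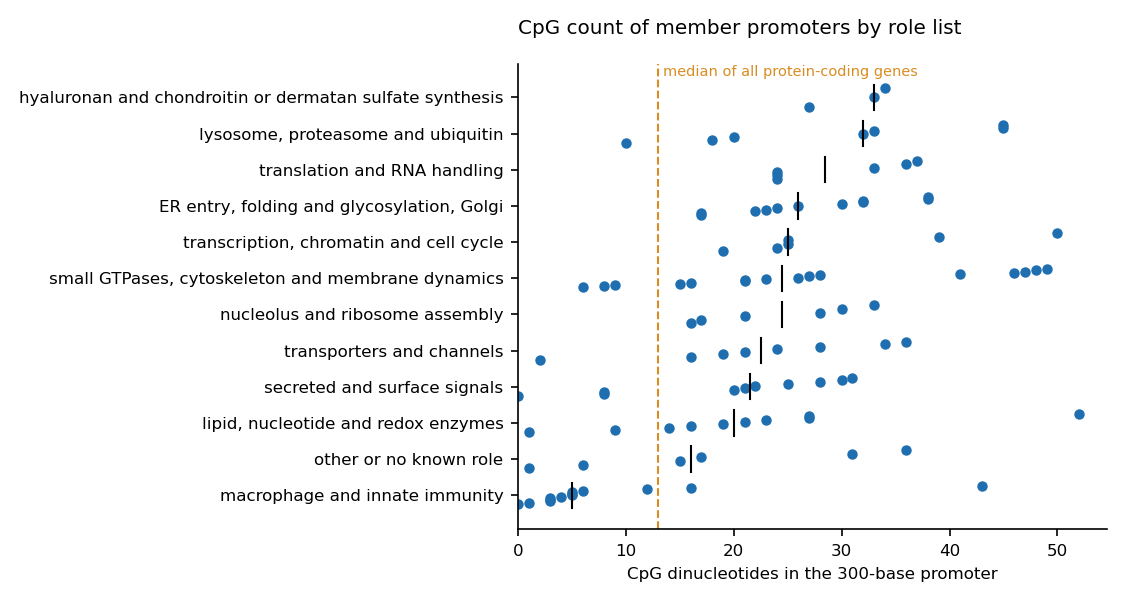
CpG dinucleotides in the 300-base RefSeq promoter of each of 102 members, by role list, with the median of each list as a line and the median of protein-coding genes, 13, dashed. The macrophage and innate immunity promoters have a median of 5, and the other lists 16 or more.

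Motifs were searched as letters on both strands. The CCAAT box was in 33 of 102 member promoters (32.4%, beside 37.9% of all promoters), and in 7 of the 11 ER and Golgi promoters (Pdia3, Pdia4, Pdia6, Rrbp1, Serp1, Stt3a and Tmem167). The ER stress response element, which contains a CCAAT box, was in 1 of 102 (0.98%) and in 0.13% of all. The AP-1 letters TGANTCA were in 6 of 102 (5.88%, beside 7.93% of all), 5 of them in the macrophage list of 13 (C3ar1, Cybb, Fgl2, Oas3 and Trim30a) and 1 in Capn2. The E-box CACGTG was in 5.88% of members and 7.24% of all, the GAS letters TTCNNNGAA in 5.88% and 8.47%, and TGACGTG, the core of the unfolded protein response element, in 2.94% and 1.99%. A match is a description of the letters, and the lists were not tested for motifs.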

How the data were processed

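The authors deposited raw counts per UCSC transcript of 24 samples, made by trimming reads with cutadapt 1.9.1, mapping them to mm10 with TopHat2 2.1.0 and Bowtie2 2.2.9 and counting with htseq-count 0.6.0. The counting mode and the transcript release are not given in the sources used here. One row without a name was left out. Modules and symbols come from the study's module list, and the members and the role and marker lists were chosen with earlier results of these data known.

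The tests used edgeR 4.0.16 under R 4.3.3. Transcripts were kept by filterByExpr (at least 10 counts in enough samples and 15 in total), which left 8940 with 99.7% to 99.9% of the counts of each sample, and libraries were scaled by TMM. Quasi-likelihood models with time, or with time and the centred number of transcripts detected, were fitted to all 24 samples, so that the time points share 1 estimate of the spread. Adjusted p-values (Benjamini-Hochberg, threshold 0.05) cover all transcripts tested. The SE is the log2 fold change divided by the square root of F. The fits were tested on simulated data. Each sample is 1 mouse, so the precision depends on the spread between mice as well as on the total counts of 9887957 to 14091629.

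Named members are, in each role list, the 2 with the largest and the 1 with the smallest change in the covariate fit, related pairs, members with a second transcript, members that failed the filter, and those most and least correlated with the module score. Other members are named as examples of their list. Scores use log2 CPM with a prior count of 1. Alternatives were other scale factors, no or a stricter filter (50 counts), limma-voom 3.58.1, DESeq2 1.42.0, 1 surrogate variable (sva 3.50.0), the replicate number as a block, only the 16 samples compared, other covariates and fits without each sample. Member positions were not printed beyond the promoters, which are from RefSeq on GRCm38.p6.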

Additional observations from a re-analysis of the deposited data

Results flagged for a closer look

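A sample was set apart where its gap to the nearest other sample of its time point, divided by the range of the 8 samples, was above Dixon's 95% critical value for that number. Over the module score and 50 members at 3 time points, 153 groups were looked at and 10 values met this rule, where chance flags about 1 in 20 groups. Values are the module score or log2 CPM. The 24 h replicate 4 was the lowest sample in the module score (-0.0924, the next at 0.681), AK202301 (4.52), Ddx21 (5.66), Esrra (2.58) and Ncl (7.31). The 45 min replicate 6 was lowest in Kbtbd11 (-0.182), Ms4a4a (-3.57) and Ms4a6c (1.37). The 0 min replicate 5 was lowest in Alcam (-1.07) and Ddx21 (4.99). All 10 were the lowest of their group. The 24 h replicate 4 had 15753 transcripts detected, the fewest at 24 h, while the 45 min replicate 6 had 13743 and the 0 min replicate 5 had 14778. What sets these samples apart was not tested.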

How the results depend on the processing

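The members that rose at 24 h against 0 min numbered 63 with time alone and 50 to 82 under the other settings, and 45 with the covariate and 37 to 82. The 82 with a covariate came from taking the share of the 20 most abundant transcripts as the covariate. The settings cover unlike numbers of members, from 108 with a minimum of 50 counts to 131 without the filter and with DESeq2. Leaving out single libraries gave 41 to 82 with time alone, 36 to 57 with the covariate, 0 to 1 at 45 min against 0 min, and 58 to 110 at 24 h against 45 min. Of the 63 and the 45 calls, 40 and 32 held in all 24 fits that each left out 1 library. At 45 min against 0 min, DESeq2, 1 surrogate variable and the covariate each gave 1 higher member in place of 0. At 24 h against 45 min, the covariate gave 57 in place of 87 and leaving out the 5 libraries under 15000 transcripts, chosen after seeing the data, gave 46. The 1 member that fell past the threshold in any fit was Esrra, at 45 min against 0 min, in 7 of 35 fits with the covariate (DESeq2, and without 0 min replicates 2 or 3, 45 min replicates 4 or 5 or 24 h replicates 4 or 8) and in 1 of 34 with time alone (1 surrogate variable). The causes were not tested. At 24 h against 0 min, over the 50 tested members given with values by time point and all settings, 13 estimates with the covariate changed sign, while 1672 kept sign and call, 36 gained and 22 lost the call. These were Esrra with upper quartile factors (-0.0260), a minimum of 50 counts (-0.00100), the replicate block (-0.099) and single libraries left out (-0.12 to 0.11), and Lamp2 with the block (-0.14) and with single libraries left out (-0.0714 without the 24 h replicate 8, up to 0.26). Of the other tested members, Seh1l turned with the block (-0.0081). The replicate number as a block gave 56 members with time alone, 38 with the covariate, 72 at 24 h against 45 min and 0 at 45 min against 0 min, and same-numbered samples correlated from -0.46 to 0.55, so the numbers were not taken as pairs. Low totals limit members with few counts at 0 min most.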
